A study of Mus musculus with 16 samples.

Results

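Serpins are a large family of proteins that share one fold, and most of them inhibit proteases by acting as suicide substrates. The target protease cleaves an exposed reactive loop, the serpin snaps into a more stable form, and protease and inhibitor stay covalently locked together. Members of clade B stay inside cells and guard against leaked granule proteases, other clades are secreted and restrain coagulation, fibrinolysis, complement and kinin release, and a few members, such as the collagen chaperone Serpinh1, inhibit no protease. In the heart, members are made by muscle cells, fibroblasts, vessels and blood-derived cells, and several act where matrix is remodelled.

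The 9 cardiac serpins described here are Serpina3n, Serpinb1a, Serpinb1c, Serpinb6a, Serpine2, Serpinf1, Serping1, Serpinh1 and Serpini1, taken by symbol from a table of 24421 genes measured in mouse ventricles. The table holds 63 symbols that start with Serpin, so 54 serpins are not members. The family was chosen by the counts of Serpinb1c, which were much higher after pressure overload. The difference of each member between operated and control hearts is therefore given below as a description without a test. The comparisons of genotypes were not used in the choice and were tested, except for Serpinb1c. All 9 members passed the filter on low counts, as did 13522 genes of the table. Serpinb1c passed it through its TAC libraries, so its comparisons of genotypes are a description too.

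The mice were male C57BL/6N littermates, either wild type (WT) or homozygous for JP2CR, a knock-in that removes codons 563 to 568 of Jph2. Jph2 encodes junctophilin-2, which holds the T-tubule membrane close to the sarcoplasmic reticulum, and the deletion makes the protein resistant to cleavage by calpain. Surgery at 9 to 10 weeks was either transverse aortic constriction (TAC), in which a tie around the aorta raises the pressure the left ventricle works against, or a sham operation. Ventricles were collected after 5 more weeks. Each of the 4 groups, WT sham, WT TAC, JP2CR sham and JP2CR TAC, had 4 RNA-seq libraries of polyadenylated RNA. The deletion is in every cell of the JP2CR mice, and gene counts cannot show it. The labels name no animal for a library, so the p-values rest on the spread among the 4 libraries of a group. That spread was estimated jointly over all 4 groups, so a comparison also rests on libraries outside it.

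Total counts ran from 9966782 to 16609732 per library, and levels are given as CPM, the counts of a gene per 10⁶ of a library total scaled by TMM. Myh7, a marker of the loaded myocardium, was at 92.2 to 296 CPM in the 8 sham libraries and at 3655 to 8012 CPM in the 8 TAC libraries. JP2CR sham 3, JP2CR sham 4 and JP2CR TAC 4 stood apart: they held 189, 196 and 141 CPM of Xist, a transcript of females, while every other library had at most 0.266 CPM. JP2CR sham 3 and 4 had 0 counts of the Y-linked Ddx3y, and JP2CR TAC 4 had 54.8 CPM against 80.9 to 109 CPM in the remaining 13 libraries. All 16 libraries are labelled male, so these 3 went against their labels, and results that rest on them are given with and without them. The atrial gene Myl7 was at 451 to 762 CPM in WT sham and 7.77 to 60.8 CPM in WT TAC, and at 85.5 to 174 CPM in JP2CR TAC. JP2CR sham 4 had 0.941 CPM of it, against 299 to 803 CPM in the other JP2CR sham libraries. In whole ventricle, fewer cells of a type and less RNA per cell cannot be told apart.

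Serpinb1c lies beside a close relative, Serpinb1a, and the stretches shown here let a reader see how far their transcripts can be told apart. Serpinb1c is on the minus strand of chromosome 13 from 32881434 to 32898211 (GRCm38, GENCODE M21) and Serpinb1a on the same strand from 32842092 to 32851185, and both are protein coding. Their coding sequences, of 1125 and 1137 bases, were identical at 89.7% of 1121 aligned positions. The 60 coding bases with the most differences held 14, and in the lines here, written 5′ to 3′ on the minus strand, capitals mark the bases that differ.
Serpinb1c, chr13:32882122-32882181: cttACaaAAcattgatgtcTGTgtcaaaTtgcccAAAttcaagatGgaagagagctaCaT
Serpinb1a, chr13:32843110-32843169: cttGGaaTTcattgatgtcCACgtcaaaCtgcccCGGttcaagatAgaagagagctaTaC
The longest stretch with no difference ran over 71 coding bases, 238 to 308 of each gene, and is the kind of stretch from which a short read cannot be placed.
Serpinb1c and Serpinb1a, shared: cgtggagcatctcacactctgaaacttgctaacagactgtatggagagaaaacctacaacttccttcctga
Of the 50-base windows of Serpinb1c transcripts, 6.28% occurred in another gene, and of those of Serpinb1a 2.81%. The share was 6.90% for Serpina3n, which has close relatives beside it on chromosome 12, at most 0.819% for Serpinb6a, Serpine2 and Serpini1, and 0 for Serpinf1, Serping1 and Serpinh1. How the authors counted reads with more than one place is not given in the sources used here.

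The 9 serpins differed widely in how far TAC libraries stood from sham libraries. Serpinb1c and Serpina3n were many times higher after TAC, Serpinf1 was 2.38 times higher in WT and 2.20 times higher in JP2CR, and Serpine2, Serpinb6a and Serping1 were 1.16 to 1.44 times higher. Serpinb1a, Serpinh1 and Serpini1 had sham and TAC libraries that overlapped in both genotypes. By libraries that did not overlap, 6 of 9 were higher in WT, beside 21.0% of all genes tested, and 6 of 9 in JP2CR, beside 16.8%. The rule used this contrast, so nothing is read from these counts. The median log2 fold change of the 9 members was 0.35 in WT and 0.46 in JP2CR, and the medians of all genes tested were -0.00094 and -0.0042.

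Among the intracellular inhibitors of clade B, Serpinb1c, whose relatives inhibit neutrophil elastase and cathepsin G, was close to absent from sham ventricles. WT sham libraries 1 to 4 held 2, 2, 2 and 1 counts, or 0.168, 0.124, 0.163 and 0.0693 CPM, and WT TAC libraries held 82, 199, 106 and 114 counts, or 6.35, 13.2, 8.88 and 9.15 CPM. Every WT TAC library stood far above every WT sham library. JP2CR sham libraries held 1, 1, 15 and 1 counts, or 0.0713, 0.0915, 0.925 and 0.105 CPM, and JP2CR TAC libraries 68, 109, 78 and 83 counts, or 5.09, 8.79, 6.02 and 5.55 CPM. The groups did not overlap in JP2CR either, but JP2CR sham 3 alone held 15 of the 18 counts of its group. A floor of 3 counts corresponds to 0.181 to 0.301 CPM in these libraries, so 7 of the 8 sham libraries were below it.

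The pooled counts of Serpinb1c gave a ratio of TAC to sham of 75.3 in WT, with an exact 95% interval of 36.3 to 188 that covers counting error only. In JP2CR the ratio was 18.2, with an interval of 11.3 to 31.1. Without JP2CR sham 3 it was 73.8, with an interval of 25.1 to 360. On the fitted log2 scale the difference was 6.10 ± 0.49 (SE, n = 4 against 4) in WT and 4.15 ± 0.43 in JP2CR, and without JP2CR sham 3 it was 6.04 ± 0.48 in JP2CR. The smaller fold of JP2CR therefore moved with 1 sham library. The fitted difference between the genotypes' TAC effects was -1.95 ± 0.91 with all libraries, -0.06 without JP2CR sham 3, and 0.11 without the 3 libraries that hold Xist. The authors' deposited table gives smaller log2 fold changes for Serpinb1c, 4.12 in WT and 2.54 in JP2CR.

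Serpinb1a, the better known mouse counterpart of human SERPINB1 and an inhibitor of neutrophil serine proteases, did not share the pattern of its neighbour. WT sham libraries were at 4.78, 5.15, 4.64 and 5.06 CPM and WT TAC libraries at 4.96, 4.18, 5.61 and 5.54 CPM. JP2CR sham libraries were at 5.56, 6.22, 5.43 and 4.81 CPM and JP2CR TAC libraries at 10.1, 6.29, 7.88 and 6.08 CPM. The WT groups overlapped, with a wider range in TAC. In JP2CR, TAC libraries 1 and 3 were above all others while library 4 was within the sham range. The log2 fold change of TAC was 0.04 ± 0.16 in WT and 0.46 ± 0.15 in JP2CR. Serpinb1b, the third coding gene of this cluster (chromosome 13, 33078575 to 33094380, plus strand), had 0 to 2 counts per library.

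Serpinb6a is a widely expressed clade B member that inhibits cathepsin G and related proteases. It lies on chromosome 13 from 33917918 to 34002794 on the minus strand. In WT, sham libraries measured 114, 110.5, 115 and 112 CPM and TAC libraries 144, 142, 143 and 148 CPM. In JP2CR they measured 106, 104, 118 and 105 CPM in sham and 145, 143, 139.9 and 129.8 CPM in TAC. TAC libraries were above sham libraries without overlap in both genotypes, and the SD of each group was smaller relative to its mean than in any other member. Its log2 difference was 0.35 ± 0.05 in WT and 0.36 ± 0.05 in JP2CR, and 0.45 in JP2CR without the 3 libraries that hold Xist.

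**Figure D1:**
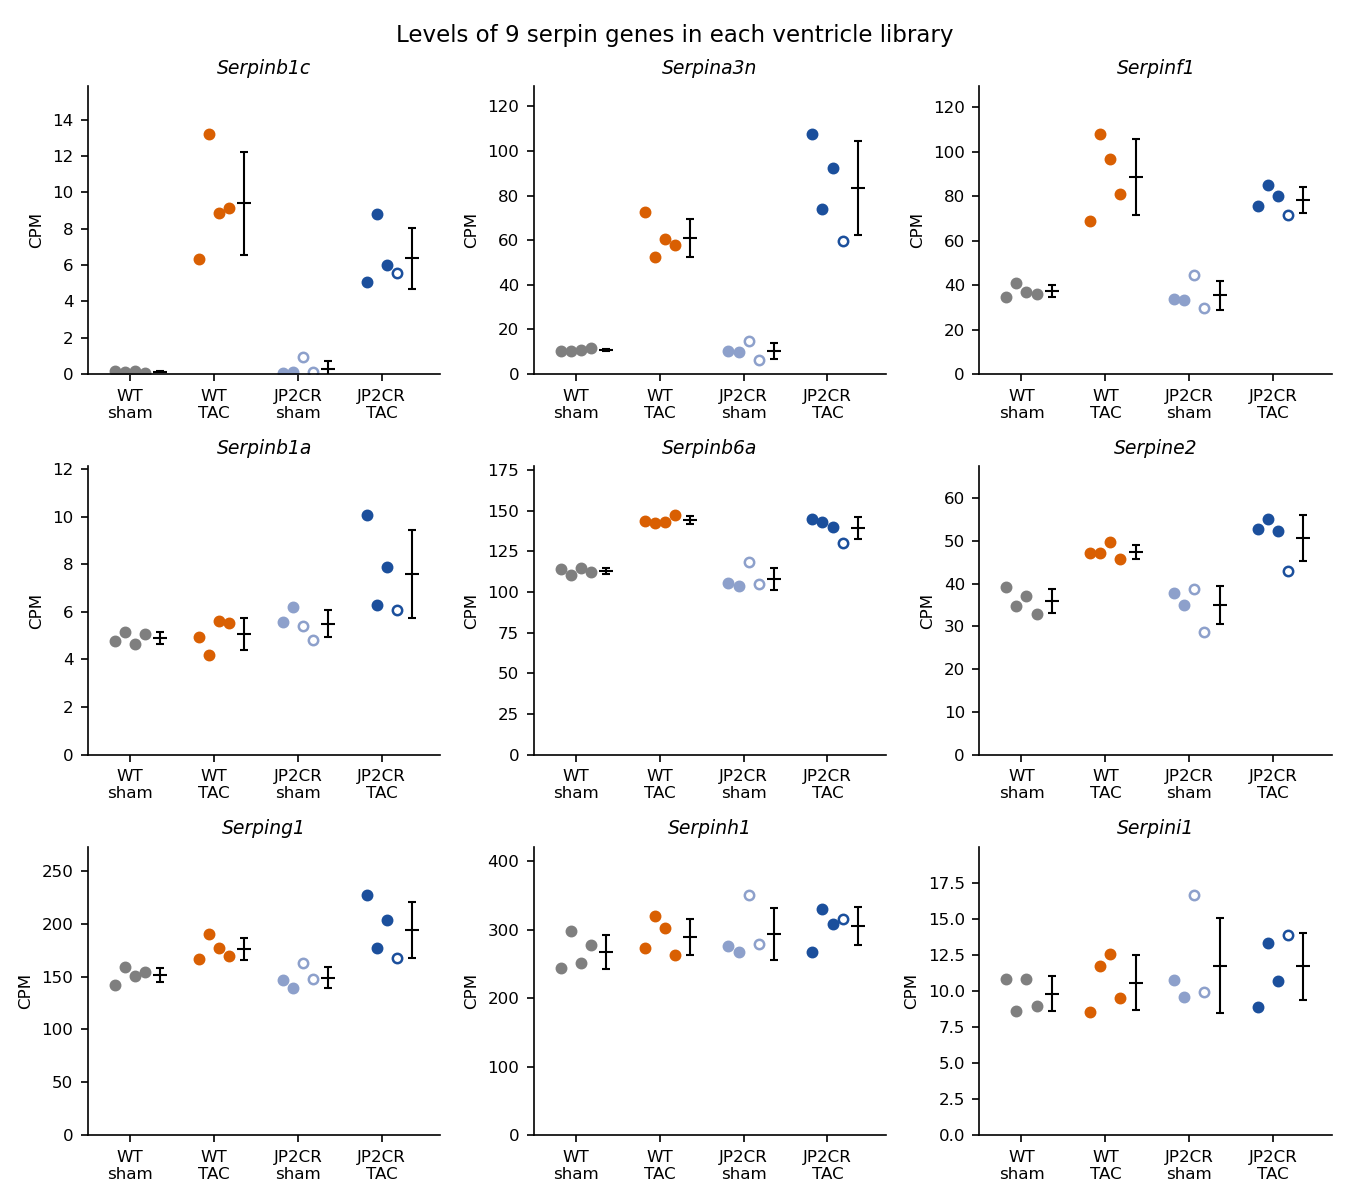
Level of each of the 9 serpins in CPM (y axis, linear from 0) in the 4 libraries of each group, with the group mean and SD in black beside the points. Open circles are the 3 libraries that hold Xist. Serpinb1c is below 1 CPM in all 8 sham libraries and at 5.09 to 13.2 CPM in the TAC libraries, while Serpinh1 stays between 244 and 351 CPM throughout.

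Among the secreted inhibitors, Serpina3n, which blocks granzyme B, elastase and cathepsin G outside cells and is a classic acute phase gene, differed most. It lies on chromosome 12 from 104406729 to 104414329 on the plus strand. Sham libraries of WT gave 10.4, 10.4, 10.7 and 11.5 CPM and WT TAC libraries 72.5, 52.6, 60.5 and 57.7 CPM. In JP2CR the sham libraries gave 10.1, 9.70, 14.9 and 6.48 CPM and the TAC libraries 108, 74.2, 92.5 and 59.5 CPM. Neither genotype had any overlap, and the lowest TAC library was at 52.6 CPM against 14.9 CPM in the highest sham library. Fitted log2 differences were 2.50 ± 0.19 in WT and 2.98 ± 0.20 in JP2CR, which are 5.66-fold and 7.87-fold. The authors' deposited log2 fold changes are 2.43 in WT and 2.40 in JP2CR.

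Serpine2, or protease nexin-1, inhibits thrombin and the plasminogen activators at the cell surface. It lies on chromosome 1 from 79794197 to 79861180 on the minus strand. WT sham libraries were at 39.1, 34.8, 37.1 and 32.8 CPM and WT TAC libraries at 47.2, 47.1, 49.7 and 45.7 CPM. JP2CR sham libraries were at 37.8, 35.0, 38.7 and 28.8 CPM and JP2CR TAC libraries at 52.8, 55.2, 52.2 and 42.8 CPM. TAC was above sham without overlap in both genotypes. The log2 fold change was 0.40 ± 0.09 in WT and 0.53 ± 0.09 in JP2CR.

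Serping1 is the C1 inhibitor, which restrains the first proteases of classical complement and the kallikrein that releases bradykinin. It lies on chromosome 2 from 84765387 to 84775444 on the minus strand. WT sham libraries were at 142, 159, 151 and 154 CPM and WT TAC libraries at 167, 191, 177 and 169.8 CPM. JP2CR sham libraries were at 146, 139, 163 and 148 CPM and JP2CR TAC libraries at 227, 177, 204 and 168 CPM. The groups did not overlap but came close, with 167 CPM in the lowest TAC library against 159 CPM in the highest sham library of WT, and 168 against 163 CPM in JP2CR. The log2 fold change was 0.22 ± 0.08 in WT and 0.38 ± 0.08 in JP2CR, and 0.51 in JP2CR without the 3 libraries that hold Xist.

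Serpini1, or neuroserpin, is an inhibitor of tissue plasminogen activator best known from neurons. It lies on chromosome 3 from 75557547 to 75643495 on the plus strand. The WT sham libraries were at 10.8, 8.57, 10.8 and 8.94 CPM and WT TAC libraries at 8.52, 11.8, 12.6 and 9.47 CPM. Those of JP2CR sham were at 10.8, 9.61, 16.7 and 9.94 CPM and JP2CR TAC libraries at 8.91, 13.3, 10.7 and 13.9 CPM. All 4 groups overlapped, and no step between neighbouring group means exceeded the larger SD. Fitted log2 fold changes were 0.12 ± 0.18 in WT and -0.02 ± 0.18 in JP2CR. The JP2CR value changed its sign with the libraries, to 0.21 ± 0.16 without JP2CR sham 3 and 0.10 ± 0.19 without the 3 libraries that hold Xist.

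Serpinf1 and Serpinh1 inhibit no protease. Serpinf1 encodes pigment epithelium-derived factor, a secreted protein that limits vessel growth, and lies on chromosome 11 from 75409769 to 75422701 on the minus strand. Levels in WT sham were 34.6, 41.0, 37.0 and 36.1 CPM and those in WT TAC 68.9, 108, 96.8 and 81.1 CPM. Levels in JP2CR sham were 33.9, 33.1, 44.5 and 29.8 CPM and those in JP2CR TAC 75.5, 85.0, 80.1 and 71.7 CPM. TAC libraries were above sham libraries without overlap in both genotypes. On the log2 scale the difference was 1.25 ± 0.13 in WT and 1.13 ± 0.13 in JP2CR.

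Serpinh1 encodes Hsp47, the chaperone that binds procollagen in the endoplasmic reticulum, and lies on chromosome 7 from 99345376 to 99353239 on the minus strand. WT sham libraries were at 244, 298, 252 and 278 CPM and WT TAC libraries at 273, 319.8, 302 and 263 CPM. JP2CR sham libraries were at 277, 267, 351 and 279 CPM and JP2CR TAC libraries at 267, 331, 308 and 315 CPM. The 4 groups overlapped, and the steps between neighbouring group means were within the spread. The log2 fold change was 0.11 ± 0.09 in WT and 0.06 ± 0.09 in JP2CR, and 0.15 ± 0.10 in JP2CR without the 3 libraries that hold Xist. In the same fit the JP2CR differences of Serpina3n, Serpinf1, Serpine2 and Serpinb1a were 3.21, 1.26, 0.55 and 0.47.

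**Figure D2:**
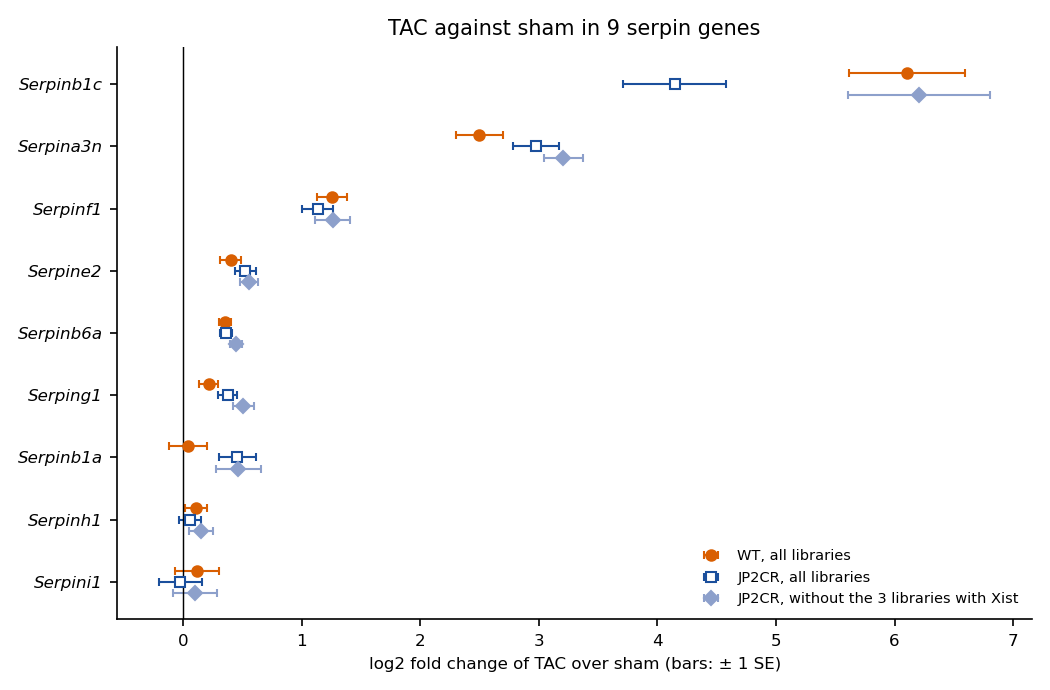
Fitted log2 fold change of TAC over sham for each of the 9 serpins (x axis; bars are 1 SE), in WT with all libraries (circles), in JP2CR with all libraries (open squares) and in JP2CR without the 3 libraries that hold Xist (diamonds). Serpinb1c in JP2CR moves from 4.15 to 6.21 when those libraries are left out, beside 6.10 in WT.

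The members also differed in how much RNA each contributed, which was compared per kilobase of exon. In WT sham ventricles Serpinh1 was highest, at 109.7 ± 10.1 CPM per kb (SD, n = 4), followed by Serping1 at 65.1 ± 3.02, Serpinb6a at 20.9 ± 0.348 and Serpinf1 at 15.8 ± 1.16. Serpina3n at 5.20 ± 0.256, Serpine2 at 4.34 ± 0.330, Serpinb1a at 2.13 ± 0.103 and Serpini1 at 1.34 ± 0.166 came next, and Serpinb1c was last at 0.0803 ± 0.0279 CPM per kb. In WT TAC the order of the first 2 was the same, Serpinf1 at 37.6 ± 7.28 and Serpina3n at 29.5 ± 4.10 were above Serpinb6a at 26.7 ± 0.432, and Serpinb1c at 5.76 ± 1.74 was level with Serpine2 at 5.72 ± 0.201 CPM per kb. The step from Serpinb6a to Serpina3n was within the SD of Serpina3n. In WT TAC 2, Serpina3n was the lower, at 25.5 against 26.3 CPM per kb. In JP2CR TAC Serpina3n at 40.4 ± 10.2 came before Serpinf1 at 33.1 ± 2.45 CPM per kb, a step within the SD of Serpina3n. Serpina3n made up 2.32% of the summed per-kb level of the 9 members in WT sham and 9.72% in WT TAC, and 2.15% and 12.5% in JP2CR. The 9 members together amounted to 631 ± 28.9 CPM in sham and 832 ± 49.3 CPM in TAC hearts of WT, and to 649 ± 70.1 and 876 ± 42.6 CPM in those of JP2CR (SD, n = 4 each), of which Serpinh1, Serping1 and Serpinb6a were the larger part.

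**Figure D3:**
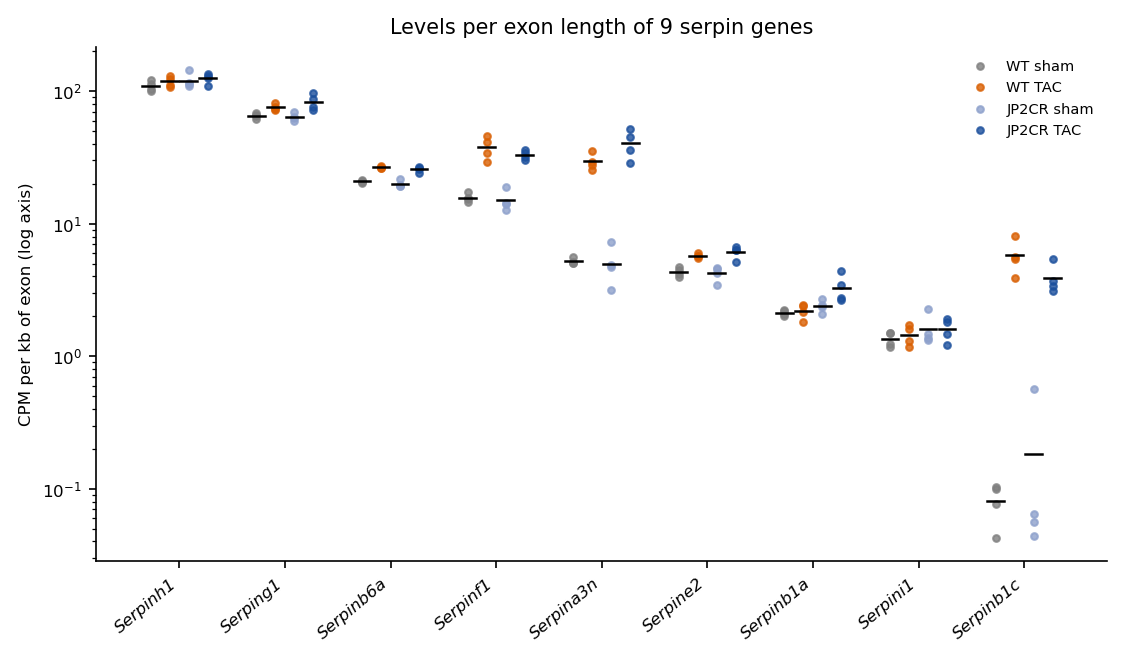
Level of each of the 9 serpins in CPM per kilobase of exon (y axis, log scale) in every library, by group, with the group mean as a black line. The range runs from 0.0803 CPM per kb for Serpinb1c to 109.7 for Serpinh1 in WT sham, and Serpinb1c reaches 5.76 CPM per kb in WT TAC.

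Whether the genotype changed any of these levels was tested in sham hearts, in TAC hearts, and as the difference between the genotypes' TAC effects (the interaction). The values of Serpinb1c are a description only. With all libraries no other member passed in any of the 3 comparisons, by edgeR's quasi-likelihood test with Benjamini-Hochberg adjustment over all genes. The background was low too: 0.0961% of genes passed in sham, 0.651% in TAC and 0.118% in the interaction, and 1078, 1740 and 1395 genes had an unadjusted p under 0.05. In sham the adjusted p of the members other than Serpinb1c ran from 0.752 to 0.991 by edgeR. The largest log2 difference, 1.38 ± 0.87, was that of Serpinb1c. That value came from JP2CR sham 3: the pooled counts gave a ratio of JP2CR sham to WT sham of 2.76 (interval 1.10 to 7.82), and of 0.680 (interval 0.114 to 2.98) without that library. Median log2 differences of the 9 members were -0.02 in sham, 0.10 in TAC and 0.01 in the interaction, beside 0.0047, -0.0026 and -0.0096 for all genes.

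In TAC hearts Serpina3n and Serpinb1a were higher in JP2CR than in WT by amounts that, among the alternatives run, passed the test only without the libraries whose Xist went against their labels. For Serpina3n the group means were 60.8 ± 8.45 CPM in WT TAC and 83.5 ± 21.0 CPM in JP2CR TAC (SD, n = 4), a log2 difference of 0.46 ± 0.17 with an adjusted p of 0.243 by edgeR. Without the 3 libraries it was 0.59 ± 0.11 with an adjusted p of 0.00808, and the adjusted p ran from 0.00808 to 0.643 over all alternatives. For Serpinb1a the means were 5.07 ± 0.662 and 7.59 ± 1.86 CPM, a log2 difference of 0.58 ± 0.15 with an adjusted p of 0.0966 by edgeR, and 4 of 4 JP2CR TAC libraries were above every WT TAC library. It was the 1 member whose TAC groups did not overlap, where 3.96% of all genes were higher without overlap. Without the 3 libraries the difference was 0.69 ± 0.16 with an adjusted p of 0.0287, and the range over alternatives was 0.0287 to 0.342. Of the 3 libraries only JP2CR TAC 4 is in this comparison. It was the lowest JP2CR TAC library for both genes, at 59.5 CPM of Serpina3n and 6.08 CPM of Serpinb1a, so leaving it out raises both differences. The sham libraries act only through the shared estimate of spread. No member passed when JP2CR TAC 4 alone was left out. WT TAC 3 and JP2CR TAC 3 were also left out along with the 3 libraries that hold Xist. The adjusted p by edgeR were then 0.149 for Serpina3n and 0.184 for Serpinb1a. These 2 libraries lay between libraries 1 and 2 of their groups by chi-square per gene, which measures how far 2 libraries differ. Libraries 1 and 2 were 15.4 apart in WT TAC and 15.0 in JP2CR TAC. Library 3 was 4.37 and 5.04 from them in WT TAC, and 5.71 and 4.25 in JP2CR TAC. Whether library 3 is independent of the others was not tested.

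Serpinb1c went the other way, at 9.40 ± 2.84 CPM in WT TAC and 6.36 ± 1.66 CPM in JP2CR TAC. The log2 difference, given as a description, was -0.57 ± 0.27 and ran from -0.76 to -0.36 over all alternatives, and the libraries overlapped. The other 6 members differed between genotypes in TAC by -0.19 to 0.15 on the log2 scale, with adjusted p by edgeR of 0.511 to 0.820. In the interaction, leaving out Serpinb1c as described above, the largest values were 0.48 ± 0.28 for Serpina3n and 0.42 ± 0.22 for Serpinb1a, with adjusted p of 0.599 and 0.542 by edgeR.

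**Figure D4:**
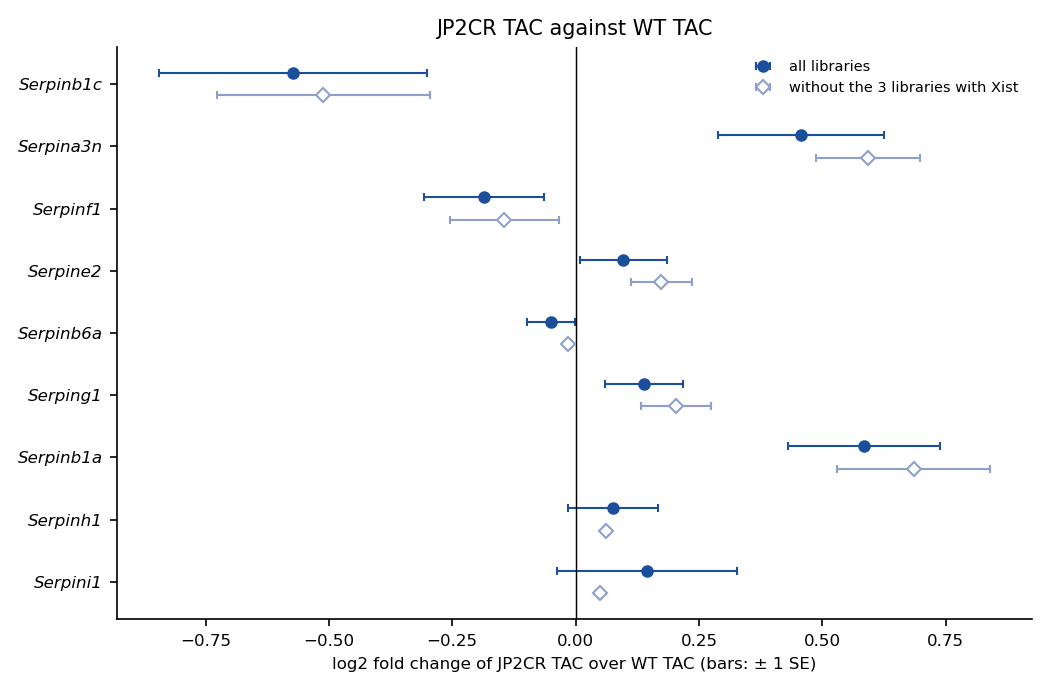
Fitted log2 fold change of JP2CR TAC over WT TAC (x axis; bars are 1 SE, not drawn where a value without the Xist libraries is below 0.1 in size) for the 9 serpins, with all libraries (filled circles) and without the 3 libraries that hold Xist (open diamonds). Serpina3n moves from 0.46 to 0.59, Serpinb1a from 0.58 to 0.69, and Serpinb1c stays below 0.

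Markers of other cell types were followed beside these values, and the lists did not move alike. Over all genes tested, 21.1% rose and 20.8% fell in WT TAC by edgeR, and 20.7% rose and 20.7% fell in JP2CR TAC. The 9 neutrophil markers in the table, none of them at 0 throughout, summed to 2.36 to 3.61 CPM in sham and 4.18 to 10.2 CPM in TAC libraries of WT, and to 2.28 to 3.11 CPM and 6.88 to 22.4 CPM in those of JP2CR. Of the 3 that could be tested, 2 rose with TAC in WT and 3 in JP2CR, and 0 passed between genotypes in TAC. S100a8, for example, held 1 to 5 counts in the sham libraries and 4 to 49 in the TAC libraries. A marker this low can pass the filter through its TAC libraries alone, so these rises are a description. JP2CR TAC libraries 1 and 3, the highest for Serpina3n and Serpinb1a, also had the highest sums, 22.4 and 12.7 CPM, against 7.34 and 6.88 CPM in JP2CR TAC 2 and 4. They were also the highest of their group for the sum of macrophage markers, at 573 and 524 CPM. In WT TAC, library 1 had the highest neutrophil sum, 10.2 CPM, and the highest Serpina3n, 72.5 CPM. Its Serpinb1a was 4.96 CPM, against 5.61 and 5.54 CPM in libraries 3 and 4. WT TAC 2 was the lowest for the neutrophil sum, Serpina3n and Serpinb1a, at 4.18, 52.6 and 4.18 CPM. For the sum of macrophage markers WT TAC 1 was the lowest, at 421 CPM, and WT TAC 2 the highest, at 479 CPM. All 12 macrophage markers were tested and 10 rose and 1 fell in WT TAC, while 9 rose in JP2CR TAC. They summed to 325 to 356 CPM in sham and 421 to 479 CPM in TAC libraries of WT, and to 331 to 409 CPM and 476 to 573 CPM in those of JP2CR. With all libraries 1 marker, Cd163, passed between genotypes in TAC, where 0.651% of all genes passed by edgeR. In the interaction 1 macrophage marker was higher by edgeR, where 0.118% of all genes passed. The part of these cells in the differences of Serpina3n, Serpinb1a and Serping1 was not tested.

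Fibroblast markers moved less clearly: of 12, 5 rose and 2 fell in WT TAC, and 5 rose and 3 fell in JP2CR TAC. Their sum was 3007 to 3460 CPM in sham and 2593 to 4057 CPM in TAC libraries of WT, and 2868 to 3723 CPM and 3203 to 3295 CPM in those of JP2CR, with no marker at 0. Of the 10 cardiomyocyte markers, 7 fell and 1 rose with TAC in each genotype. Their sum was 117267 to 120880.0 CPM in sham and 89206 to 94545 CPM in TAC libraries of WT.

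Several other lists held more lower than higher calls after TAC. Of 11 atrial markers, 10 fell and 1, Nppa, rose in WT TAC, and 5 fell in JP2CR TAC, with median log2 changes of -2.07 and -1.14. Between genotypes in TAC, where 0.651% of all genes passed by edgeR, 1 atrial marker was higher in JP2CR, with a median of 0.79 over the list. Of 10 adipocyte markers, 9 fell in WT TAC and 0 passed in JP2CR TAC, with medians of -6.18 and -0.42. Between genotypes in TAC, with all libraries, 1 of them, Retn, was higher in JP2CR, with a median of 4.48 over the list. The adipocyte sum was 397 to 684 CPM in sham and 348 to 419.8 CPM in TAC libraries of WT, and 348 to 756 CPM and 472 to 617 CPM in those of JP2CR. That of the atrial list, which includes Nppa, was 3343 to 4896 CPM and 4004 to 7649 CPM in WT, and 377 to 6292 CPM and 4276 to 5330.2 CPM in JP2CR.

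All 5 tested markers of Schwann cells and nerve fell in WT TAC and 4 of them in JP2CR TAC. Their list summed to 28.3 to 36.2 CPM in sham and 8.21 to 11.2 CPM in TAC libraries of WT, and to 22.5 to 33.0 CPM and 11.7 to 14.0 CPM in those of JP2CR. Of 9 smooth muscle and pericyte markers, 6 fell and 1 rose in WT TAC, and 4 fell and 1 rose in JP2CR TAC. Of 5 tested mast cell markers, 4 fell in WT TAC and 0 passed in JP2CR TAC, and the 1 tested T and NK cell marker did not pass in WT TAC and rose in JP2CR TAC. Among 11 endothelial markers 0 passed in WT TAC and 2 fell in JP2CR TAC. In the interaction 0 markers of the atrial, adipocyte, nerve, smooth muscle, mast cell, T and NK cell and endothelial lists passed by edgeR. Of the macrophage list 1 marker did, as given above. No marker of these lists was at 0 in every library, and the single markers named were chosen after their values were seen. The part of any of these cell types in the levels of the serpins was not tested.

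Likeness to other genes was measured as Pearson's r of log2 CPM over the 16 libraries, among 11604 genes, and given as a description, since sham and TAC libraries differ in so many genes. Serpinb1c ran most closely with Bgn (r = 0.992), Mfap5 (0.992) and Igfbp7 (0.991), of which Bgn and Mfap5 encode matrix proteins. Serpinf1 ran with Adcy7 (0.993) and with the matrix genes Cilp (0.989) and Postn (0.989). Serpina3n ran with Timp1 (0.986), an inhibitor of metalloproteases, and with Myc (0.986) and Sema3f (0.983). Serpinb1a ran with Wfdc17 (0.929), Ccl6 (0.894) and Fcna (0.864), genes known from macrophages and other myeloid cells. Serpinh1 and Serpini1 had weaker nearest genes, Myl12b (0.911) and Dnmt3b (0.867). For the remaining 3 the nearest were Pamr1 for Serpinb6a (0.983), Atp8b2 for Serpine2 (0.950) and Hmha1 for Serping1 (0.946).

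Of the 54 serpins that are not members, 6 that could be tested are reported here, and 2 of these rose with TAC in each genotype by edgeR. Over all genes tested, 21.1% rose in WT TAC and 20.7% in JP2CR TAC, and nothing is read from so small a count. Another 47 did not pass the filter on low counts, of which 19 had 0 counts in every library, and the largest total over 16 libraries among the 47 was 98. Serpinb6b, a neighbour of the Serpinb1 genes on chromosome 13 (32965209 to 32979067, plus strand), rose by 0.56 ± 0.10 in WT (adjusted p = 1.67e-04 by edgeR) and by 0.53 ± 0.10 in JP2CR (adjusted p = 3.18e-04 by edgeR). Its libraries were at 62.3 to 71.9 CPM in WT sham and 93.3 to 106 CPM in WT TAC, and at 59.9 to 68.2 CPM and 70.4 to 110.3 CPM in JP2CR. Serpina3i, a relative of Serpina3n near it on chromosome 12, was higher in TAC by 2.56 ± 0.63 in WT and by 2.44 ± 0.61 in JP2CR. It rests on few reads, with 0 to 6 counts in the sham libraries and 10 to 31 in the TAC libraries. It passed the filter on low counts through its TAC libraries, so its difference is a description and its p is not given. Serpina3c, Serpina3g, Serpinb8 and Serpinb9 did not pass in any comparison.

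The genes that serpins work with were followed in lists for the proteases, partners and receptors. Over all genes tested, 21.1% rose and 20.8% fell in WT TAC, and 20.7% rose and 20.7% fell in JP2CR TAC by edgeR. Nothing is read from list counts near these shares, such as those of the receptors and, in WT, of coagulation. Of 8 tested genes of plasminogen activation, 3 rose and 1 fell in WT TAC, and 4 rose and 1 fell in JP2CR TAC, with median log2 changes of 0.29 and 0.46. St14, the membrane protease matriptase, rose by 2.68 ± 0.34 in WT and 2.29 ± 0.34 in JP2CR (adjusted p of 6.31e-06 and 4.44e-05 by edgeR). The annexin pair that binds plasminogen at the cell surface, Anxa2 and S100a10, rose by 0.57 ± 0.10 and 0.37 ± 0.13 in WT and by 0.74 ± 0.10 and 0.67 ± 0.13 in JP2CR. Vtn, the adhesive plasma and matrix protein vitronectin, fell by 0.77 ± 0.12 in WT, at an adjusted p of 6.66e-05 by edgeR, and by 0.40 ± 0.12 in JP2CR.

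Of 11 genes of thrombin and coagulation, 3 rose and 2 fell in WT TAC and 4 rose and 2 fell in JP2CR TAC, with medians of 0.22 and 0.31. The protease-activated receptors F2r and F2rl1 rose by 0.79 ± 0.08 and 1.99 ± 0.25 in WT and by 0.73 ± 0.08 and 1.57 ± 0.27 in JP2CR. F3, tissue factor, and Tfpi, its inhibitor, fell by 0.71 ± 0.10 and 0.48 ± 0.08 in WT and by 0.69 ± 0.10 and 0.74 ± 0.08 in JP2CR. F13a1, the fibrin crosslinking subunit, exceeded its WT TAC level in JP2CR TAC hearts by 0.47 ± 0.10 (adjusted p = 0.0403 by edgeR). This call is with all libraries, and the number of genes called in this comparison changed with the libraries used, as given below.

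Of 9 genes of classical complement and kinin, the system that Serping1 restrains, 4 rose in WT TAC and 7 in JP2CR TAC, 0 fell, and the medians were 0.44 and 0.53. C1qa, C1qb and C1qc, which form the recognition subunit C1q, rose by 0.55 ± 0.09, 0.59 ± 0.11 and 0.44 ± 0.07 in WT and by 0.47 ± 0.09, 0.57 ± 0.11 and 0.53 ± 0.07 in JP2CR. Masp1, a lectin pathway protease, rose by 0.65 ± 0.14 in WT and 0.63 ± 0.14 in JP2CR. C1qa and C1qb are also in the macrophage list.

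Of 17 granule proteases and cathepsins, 5 rose and 10 fell in WT TAC and 5 rose and 5 fell in JP2CR TAC, with medians of -0.41 and -0.01. The lysosomal Ctsd and Ctsz rose by 0.45 ± 0.06 and 0.54 ± 0.07 in WT and by 0.34 ± 0.06 and 0.57 ± 0.07 in JP2CR. Ctsc, which activates granule proteases, fell by 0.45 ± 0.07 in WT and 0.33 ± 0.07 in JP2CR, and Htra1 fell by 0.89 ± 0.11 and 0.79 ± 0.11. Cma1, the mast cell chymase, exceeded its WT TAC level in JP2CR TAC hearts by 1.53 ± 0.27 (adjusted p = 0.0218 by edgeR). That call too is with all libraries only. The 6 mast cell markers summed to 10.8 to 18.3 CPM in WT TAC and 17.3 to 19.3 CPM in JP2CR TAC.

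Of 42 genes of collagen biosynthesis, 27 rose and 4 fell in WT TAC and 26 rose and 2 fell in JP2CR TAC, with medians of 0.47 and 0.37, beside the 0.11 and 0.06 of their chaperone Serpinh1. Col8a1 rose by 2.94 ± 0.24 and 2.71 ± 0.23, Col12a1 by 3.41 ± 0.29 and 2.53 ± 0.30, the crosslinking enzyme Lox by 2.62 ± 0.22 and 2.45 ± 0.22, and the collagen binding Sparc by 1.01 ± 0.08 and 1.02 ± 0.08, in WT and JP2CR. Of 24 genes of the interleukin-6 family and the acute phase, signals known to act on Serpina3n in other tissues, 10 rose and 4 fell in WT TAC and 14 rose and 2 fell in JP2CR TAC, with medians of 0.35 and 0.55. The oncostatin M receptor Osmr rose by 0.80 ± 0.10 and 0.78 ± 0.10, Il4ra by 0.65 ± 0.07 and 0.90 ± 0.07, Fgl2 by 1.26 ± 0.10 and 1.12 ± 0.10 and ceruloplasmin, Cp, by 0.62 ± 0.09 and 0.60 ± 0.09.

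Of 11 receptors for Serpinf1 and for complexes of serpins with proteases, 3 rose and 2 fell in each genotype, near the shares over all genes tested. Their medians were 0.11 and -0.07. Lrp1, which clears such complexes, rose by 0.46 ± 0.12 in WT and 0.38 ± 0.12 in JP2CR. Lrp6 rose by 0.54 ± 0.09 and 0.48 ± 0.09, and Lrp8 by 3.12 ± 0.34 and 2.86 ± 0.35. Lrp2 fell by 1.41 ± 0.33 in WT (adjusted p = 0.00246 by edgeR) and was at -0.13 ± 0.33 in JP2CR (adjusted p = 0.778 by edgeR). Their difference was not called in the interaction, where, as in the comparison of sham hearts, 0 genes of the 7 lists passed.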

How the data were processed

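The authors deposited 1 table with whole-number counts per gene for 16 libraries and, for their own comparisons of TAC with sham, log2 fold changes and p-values. Per the labels' protocols, Trizol extracts were enriched for polyadenylated RNA and sequenced as stranded TruSeq libraries. Tools named in the submitters' processing notes are STAR 2.5.0b, Cufflinks 2.2.1, bedtools 2.17.0, Picard 1.128, FastQC 1.0.0, DESeq2 1.6.3, with the mm10 build. For the read counter, its annotation and its use of strand, nothing is given in the sources used here, so reads of overlapping or near-identical genes may be split in an unknown way. The authors' p-values were not used, and their log2 fold changes only where named.

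The counts as deposited were fitted with edgeR 4.0.16 (R 4.3.3): filterByExpr by group, TMM scaling, one mean per group over all 16 libraries, the quasi-likelihood F test, and Benjamini-Hochberg adjustment over 13522 genes with a threshold of 0.05. A standard error is the fold change divided by the square root of F. Count ratios have exact 95% intervals. Positions and exon lengths are from GENCODE M21 on GRCm38, and an exon length is the union over all annotated transcripts of a gene. Alternatives were DESeq2 1.42.0, its size factors in edgeR, no filter, 1 CPM in at least 8 libraries, a replicate block, only the groups compared, each library left out, and sets of libraries left out. The procedure was tested on simulated counts.

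The 9 members, the gene lists and the libraries left out as sets were chosen with earlier results of these data known. Named beside them are other serpins that passed (1 gene is not reported here), up to 4 genes per list with the smallest p in WT TAC or in a genotype comparison, and the 3 genes most like each member, of which some are printed. Replicate numbers did not pair libraries: in the 4 comparisons of groups, correlations of same-numbered libraries ran from -0.055 to 0.108, and 1 of 16 pairs was over 0.1. No 2 libraries agreed within sampling noise; the closest pair had a chi-square of 1.51 per gene.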

Additional observations from a re-analysis of the deposited data

Results flagged for a closer look

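Over the 9 members in 4 groups, 4 of 36 sets of 4 libraries had 1 library far from the other 3 by Dixon's test at the 95% level, where chance gives about 1 in 20. All 4 were in JP2CR sham, and in each the library was JP2CR sham 3, one of the 3 that hold Xist, and the highest. Serpinb1c was at 0.925 CPM there against 0.0713 to 0.105 CPM in the other 3 libraries. Serpinb6a was at 118 CPM, Serpinh1 at 351 CPM and Serpini1 at 16.7 CPM. JP2CR sham 3 also had 3890 CPM of Nppa and 269 CPM of Nppb, the highest of the 8 sham libraries for both natriuretic peptides. The part of these in its serpin levels was not tested.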

How the results depend on the processing

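All values here count genes past an adjusted p of 0.05, higher and then lower, unless named otherwise, and no called value changed its direction. Between TAC and sham, of the other serpins reported, 4 in place of 2 rose in each genotype with no filter, 1 in each with the filter of 1 CPM in at least 8 libraries, 4 in WT without both sets of libraries, and 2 to 4 in each genotype when 1 library was left out (4 without WT TAC 2 or JP2CR TAC 4). In WT, 1 in place of 0 fell without the 3 libraries that hold Xist, without both sets, and with only the groups compared.

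The genotype comparisons depended on single libraries. In sham, 0 and 13 became 13 and 39 with the DESeq2 Wald test, 3 and 22 with no filter, 2 and 20 with the replicate block, 20 and 44 without the Xist libraries, 6 lower without WT TAC 3 and JP2CR TAC 3, and 6 higher without both sets. Leaving out 1 library gave 0 to 5 and 5 to 27, with the most lower calls without JP2CR sham 3. In TAC, 49 and 39 became 129 and 100 with DESeq2, 228 and 150 without the Xist libraries, with 2 members higher, 2 and 2 without WT TAC 3 and JP2CR TAC 3, 14 and 5 without both sets, and 95 and 62 with only the groups compared. Leaving out 1 library gave 5 to 63 and 3 to 62, with 13 or fewer in each direction without WT TAC 2, 3 or 4 or JP2CR TAC 3 or 4.

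In the interaction, 12 and 4 became 91 and 41 with DESeq2, 29 and 10 with no filter, 7 and 2 with the replicate block, 213 and 159 without the Xist libraries, 0 and 0 without WT TAC 3 and JP2CR TAC 3, and 42 and 17 without both sets. Leaving out 1 library gave 2 to 93 and 0 to 27, with the most without JP2CR sham 3. The cause was not tested. The replicate block changed no call of a member between genotypes. Serpinb1c is limited by depth in sham hearts, where 7 of 8 libraries held fewer than 3 counts, and with 4 libraries per group the small differences of Serpinh1 and Serpini1 could not be told from 0.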

Other observations

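Some serpins below the filter on low counts were seen in few reads. Serpina3h, annotated as a transcribed pseudogene next to Serpina3g on chromosome 12, had 10 counts over the 4 sham and 32 over the 4 TAC libraries of WT, and 9 and 47 over those of JP2CR. Serpina3f, a coding relative, had 6, 20, 13 and 24 counts in the same order. Serpina3m had 2, 6, 2 and 26 counts. Serpind1, heparin cofactor II, which inhibits thrombin, had 41, 22, 22 and 13 counts. These sums were not tested.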
